A study of Mus musculus with 6 samples.

Results

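The cells described here are Klrg1-negative natural killer (NK) cells from mouse liver, 832 of the 23860 cell barcodes in 3 single-cell RNA libraries. They were chosen by measured values. A member had no T cell receptor (TCR) contig, at least 1 unique molecular identifier (UMI) of Ncr1, at least 1 UMI over Eomes, Klra8 and Klra4, and no UMI of Klrg1, Cd3d, Cd3e, Cd79a or Lyz2. Ncr1 encodes the receptor NKp46, Eomes a transcription factor of NK cells, and Klra8 and Klra4 the Ly49H and Ly49D receptors. Requiring Ncr1 left 3490 barcodes, requiring Eomes, Klra8 or Klra4 left 2166, and requiring no contig left 1985. Removing barcodes with Cd3d or Cd3e, then Cd79a, then Lyz2 left 1813, 1676 and 1574. Klrg1 was absent from 832 of these 1574. After the removal of called doublets and cells high in mitochondrial UMIs, 830 members stayed in all that follows: 187 from iNKT KO HFD+HDCA, 356 from WT HFD+HDCA and 287 from WT HFD.

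The study asked how hyodeoxycholic acid (HDCA), a bile acid, acts on liver immune cells of mice on a fatty diet. The iNKT KO HFD+HDCA mice lacked the Jα18 segment (Ja18-/-) and ate a 60% high-fat diet with 0.25% HDCA. The WT HFD+HDCA mice were wild type on the same diet with HDCA, and the WT HFD mice were wild type on the 60% high-fat diet alone. Feeding lasted 12 weeks in all 3 groups, so every library comes from mice on the fatty diet. The age, sex and strain of the mice are not given in the sources used here. Loss of Jα18 removes the receptor of invariant NKT (iNKT) cells in the whole animal, and such alleles can also change the use of neighbouring TCR α segments. The labels name a sort for CD45 in one place and for CD4 in another. A single RNA library and a single TCR library represent each group, and how many mice were pooled for them is not stated in the sources used here. The study's normal-diet group was not analysed here.

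The RNA libraries held 7153 barcodes and 46600746 UMIs (iNKT KO HFD+HDCA), 10228 barcodes and 70776925 UMIs (WT HFD+HDCA) and 6479 barcodes and 44332213 UMIs (WT HFD). Between 67 and 93 barcodes were shared by a pair of libraries. The targeted segment Traj18 had 0 UMIs in iNKT KO HFD+HDCA, 160 in WT HFD+HDCA and 172 in WT HFD. Members had a median of 5065 UMIs in iNKT KO HFD+HDCA, 5072.5 in WT HFD+HDCA and 4978 in WT HFD. Their summed UMIs were 1124435, 2010695 and 1609602 in these libraries. Levels are CPM: a gene's UMIs divided by the population's summed UMIs in that library, on the same scale in every library. With 1 library per group, intervals on levels, ratios and shares are exact 95% intervals that cover counting error only, and no test between the groups of mice was possible.

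NK cells are innate lymphocytes that kill target cells with perforin and granzymes and secrete interferon-γ and chemokines. In mice they mature from CD27-positive cells towards cells with CD11b, and Klrg1, an inhibitory lectin receptor, appears late on that path. The liver also holds type 1 innate lymphoid cells (ILC1), residents that share Ncr1 with NK cells but lack Eomes.

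The members carried NK receptor genes that the gate did not use. Klrb1c, the NK1.1 receptor, had a UMI in 97.9% of members in iNKT KO HFD+HDCA, 96.6% in WT HFD+HDCA and 93.4% in WT HFD. In B-gated cells, which should lack it, the shares were 0.482%, 0.523% and 0.197% in the same libraries, at median depths of 4220, 4383 and 4490.5 UMIs. With every cell thinned to 2000 UMIs, Klrb1c was seen in 85.0%, 85.9% and 84.2% of members. Klrk1, the NKG2D receptor, was seen in 97.9%, 97.8% and 99.0% of members in iNKT KO HFD+HDCA, WT HFD+HDCA and WT HFD, against 0.965%, 0.493% and 0.591% of B-gated cells. Cd8a had no UMI in any member and Cd4 had a UMI in 1 member, in WT HFD. The cells thus carried these NK receptor genes in all 3 libraries. The list of 17 NK activating and shared receptor genes, Ncr1 among them, summed to 7626.9, 7884.8 and 7531.1 CPM in members of these libraries. In ILC1-gated cells, described below, it summed to 8281.5, 8729.1 and 8097.5 CPM. As a sum, this list did not set members apart from ILC1-gated cells.

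Eomes was the most widely detected of the 3 alternative gate genes. It was found in 84.5% of members in iNKT KO HFD+HDCA, 80.3% in WT HFD+HDCA and 81.9% in WT HFD, against 0.201%, 0.246% and 0.0985% of B-gated cells. Klra8 was found in 67.9%, 68.5% and 69.0% of members in the same libraries, and Klra4 in 62%, 57.6% and 61.3%. All 3 genes were seen together in 42.2%, 34.8% and 38.3% of members, and exactly 1 of them in 27.8%, 28.4% and 26.1%. Members admitted by Eomes alone made up 18.7%, 20.5% and 17.4%. These values describe the gate, and the 95% intervals of each share overlapped between the libraries. Ly49 genes are near-identical copies, so reads may be split among them.

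The membership rule sits on single UMIs. Ncr1 rested on exactly 1 UMI in 3.74% of members in iNKT KO HFD+HDCA, 5.34% in WT HFD+HDCA and 5.92% in WT HFD. Eomes, Klra8 and Klra4 together rested on 1 UMI in 10.7%, 8.43% and 9.06%. Just outside the rule, 58, 122 and 68 Klrg1-positive NK cells of these libraries had exactly 1 Klrg1 UMI. They belong to the 168, 390 and 181 cells of iNKT KO HFD+HDCA, WT HFD+HDCA and WT HFD that passed the same gate but with Klrg1. Klrg1-positive cells had median depths of 4954.5, 5582.5 and 5536 UMIs, so in both WT libraries they were deeper than members.

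The share of gated NK cells that lacked Klrg1 differed between libraries, and depended on depth. Members were 52.7% of gated NK cells in iNKT KO HFD+HDCA (47.3% to 58.0%), 47.7% in WT HFD+HDCA (44.1% to 51.4%) and 61.3% in WT HFD (56.7% to 65.8%). At 2000 UMIs per cell they were 65.4%, 68.3% and 74.3% in the same libraries. The gates were applied anew to the thinned counts, so members after thinning are not the same cells. Klrg1-positive cells that lost their Klrg1 UMIs could enter. The ratio of knockout to WT mice on HDCA was 1.1 with all UMIs and 0.958 after thinning, so it crossed 1. The WT ratio of HDCA diet to plain HFD was 0.778 and 0.919, below 1 both ways.

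Among all kept cells, members had their smallest share in the knockout library. They made up 2.74% of cells in iNKT KO HFD+HDCA (2.36% to 3.15%), 3.68% in WT HFD+HDCA (3.31% to 4.07%) and 4.63% in WT HFD (4.12% to 5.18%). After thinning the shares were 3.06%, 4.62% and 4.72%. The ratio of knockout to WT mice on HDCA was 0.745 with all UMIs and 0.662 thinned, and that of WT HFD+HDCA over WT HFD was 0.795 and 0.979. NK cells with and without Klrg1 together made up 5.19%, 7.71% and 7.55% of kept cells in the 3 libraries. Shares within a sort fall when other cells are more numerous, and cell numbers per liver are not given in the sources used here.

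**Figure D1:**
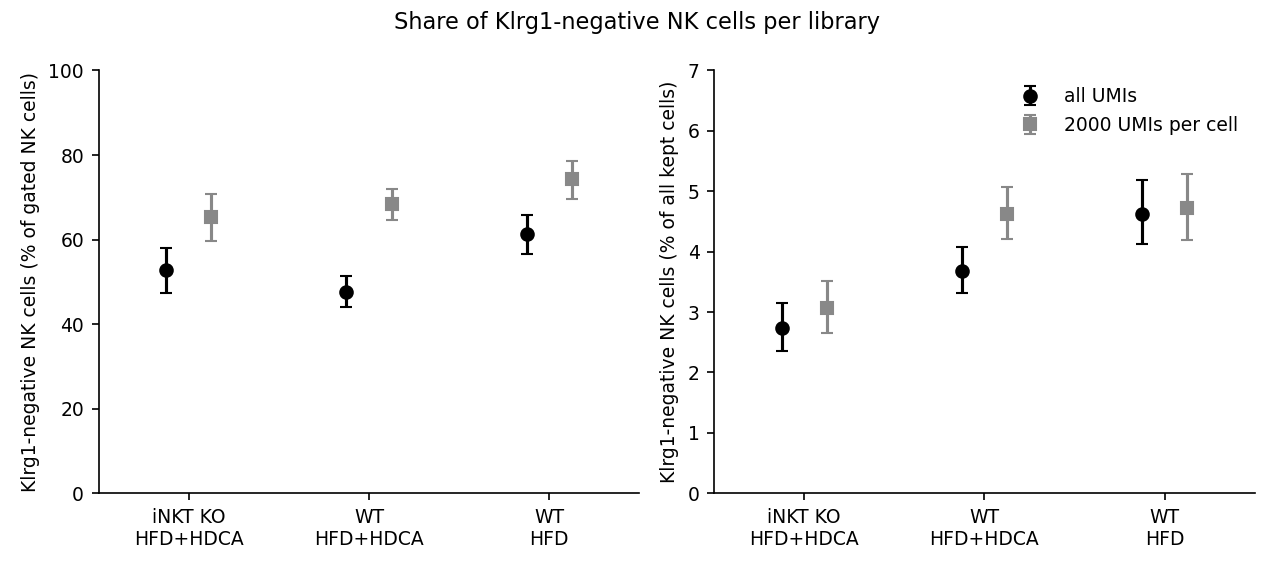
Klrg1-negative NK cells as a percent of gated NK cells (left) and of all kept cells (right) in iNKT KO HFD+HDCA, WT HFD+HDCA and WT HFD, with all UMIs (black circles) and with 2000 UMIs per cell (grey squares). Bars are exact 95% binomial intervals for counting error only. The order of iNKT KO HFD+HDCA and WT HFD+HDCA in the left panel differs between both depths (52.7% and 47.7% with all UMIs, 65.4% and 68.3% thinned).

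Members were spread over the CD27 and CD11b stages. Cd27 without Itgam, which encodes CD11b, was seen in 19.8% of members in iNKT KO HFD+HDCA, 24.2% in WT HFD+HDCA and 17.4% in WT HFD. Itgam without Cd27 was seen in 34.2%, 30.6% and 35.5%, both in 18.2%, 14.6% and 16.7%, and neither in 27.8%, 30.6% and 30.3%. Gated anew after thinning, members numbered 200, 434 and 284, and neither gene was seen in 59.5%, 53.7% and 55.6% of them. The size of that class thus moved with depth and with the change of members. The background in B-gated cells was 0.965%, 0.739% and 0.493% for Cd27 and 0.764%, 1.39% and 0.936% for Itgam. Counted with or without Itgam, Cd27 was seen in 38.0%, 38.8% and 34.1% of members in these libraries (9.5%, 16.4% and 12.7% thinned), against 16.1%, 21.0% and 17.1% of Klrg1-positive cells (7.55%, 5.97% and 6.12% thinned).

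To learn what sets members apart, summed counts of Klrg1-negative and Klrg1-positive NK cells were compared across the 3 libraries with edgeR's quasi-likelihood test, with the library as a block. Genes of the gate stood in the fit and its adjustment but in none of the counts given here, and a gene was called at a Benjamini-Hochberg adjusted p under 0.05. Of 8966 other genes tested, 235 (2.62%) were higher in Klrg1-negative NK cells and 266 (2.97%) were lower. Without the WT HFD+HDCA library, the deepest, the counts were 94 and 95. The 3 libraries differ in diet and genotype, so the p-values measure how far 3 unlike libraries show the same difference. The gene lists used next were drawn up with earlier results of these data known.

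Genes of immature NK cells were higher in members. In the list of 18 such genes, all tested, 14 were higher and 0 lower, with a median log2 fold change of 0.92 against 0.002 over all genes. Emb, encoding the membrane glycoprotein embigin, had 239, 321 and 363 CPM in Klrg1-negative NK cells of iNKT KO HFD+HDCA, WT HFD+HDCA and WT HFD, against 82.3, 89.4 and 118 CPM in Klrg1-positive NK cells of the same libraries. The 6 values did not overlap, and the log2 fold change was 1.69 ± 0.09 (SE; edgeR adjusted p = 3.617e-24). Il7r, the interleukin-7 receptor, had 19.6, 41.8 and 48.5 CPM in members of these libraries and 12.7, 6.69 and 6.87 CPM in Klrg1-positive cells. Its log2 fold change was 2.23 ± 0.26 (edgeR adjusted p = 7.917e-10), and the gap was smallest in the knockout library.

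Tcf7, encoding the transcription factor TCF-1 of early NK cells, had 176, 202 and 189 CPM in Klrg1-negative cells of iNKT KO HFD+HDCA, WT HFD+HDCA and WT HFD, against 69.7, 84.3 and 73.9 CPM in Klrg1-positive cells. Its log2 fold change was 1.29 ± 0.10 (edgeR adjusted p = 7.754e-17). Cd27, a costimulatory receptor of the TNF receptor family, had 107.6, 128 and 100.6 CPM in members and 40.1, 53.2 and 41.2 CPM in Klrg1-positive cells. Kit, the stem cell factor receptor, and Cxcr3, a chemokine receptor, were higher by 1.4 and 1.47 on the log2 scale (edgeR adjusted p = 1.556e-09 and 1.19e-12). Ltb, encoding lymphotoxin β, had 244, 305 and 260.3 CPM in members, against 57.0, 98.0 and 125 CPM in Klrg1-positive cells of the same libraries. In each of these genes the lowest library of members stood above the highest library of Klrg1-positive cells. Cd7, Cd160, Ctla2a, Xcl1, Cd69 and Ctla2b rose by 0.93, 0.92, 0.91, 0.66, 0.53 and 0.29 on the log2 scale. The 4 list genes that did not pass were Tnfsf10, Samd3, Thy1 and Il18r1. Of the list, 11 genes were called without WT HFD+HDCA and 10 of 16 tested after thinning.

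Genes of mature NK cells were lower in members. Of the 17 genes on that list other than Klrg1, all tested, 16 were lower and 1 higher, with a median of -0.55 on the log2 scale. Cx3cr1, the fractalkine receptor of the most mature NK cells, had 13.3, 14.9 and 7.46 CPM in Klrg1-negative NK cells of iNKT KO HFD+HDCA, WT HFD+HDCA and WT HFD, against 86.6, 101 and 81.6 CPM in Klrg1-positive NK cells. Its log2 fold change was -2.92 ± 0.18 (SE; edgeR adjusted p = 6.356e-21). Cma1, a chymase gene, had 206, 179 and 226 CPM in members and 386, 413 and 389 CPM in Klrg1-positive cells, a log2 fold change of -0.99 ± 0.08 (edgeR adjusted p = 1.169e-15). Itgam had 159, 147 and 161 CPM in members, against 311, 291 and 301 CPM in Klrg1-positive cells (-0.97 ± 0.08, edgeR adjusted p = 4.431e-15). For all 3 genes the populations stood apart in every library. Cx3cr1 was the lowest of the list by far, and most of the other genes differed by less than 1 log2 unit.

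The regulators of terminal maturation were lower by small amounts. Tbx21, which encodes T-bet, had 383, 394 and 395 CPM in Klrg1-negative cells of iNKT KO HFD+HDCA, WT HFD+HDCA and WT HFD, against 520.3, 515 and 581 CPM in Klrg1-positive cells (-0.47, edgeR adjusted p = 1.439e-06). Zeb2, Irf8, Prdm1 and Klf2, other transcription factors of the list, changed by -0.54, -0.47, -0.48 and -0.35. S1pr5, a sphingosine-1-phosphate receptor used by NK cells to leave tissues, changed by -0.59, and Spn, encoding CD43, by -0.34. Ly6c2, Lgals1 and Rap1gap2 changed by -0.85, -0.70 and -0.44. S1pr1, a related exit receptor, was the 1 list gene that was higher (0.53, edgeR adjusted p = 0.04947), and it was not called without any 1 of the 3 libraries or after thinning. Of the 17 list genes, 13 were lower without WT HFD+HDCA and 12 after thinning.

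**Figure D2:**
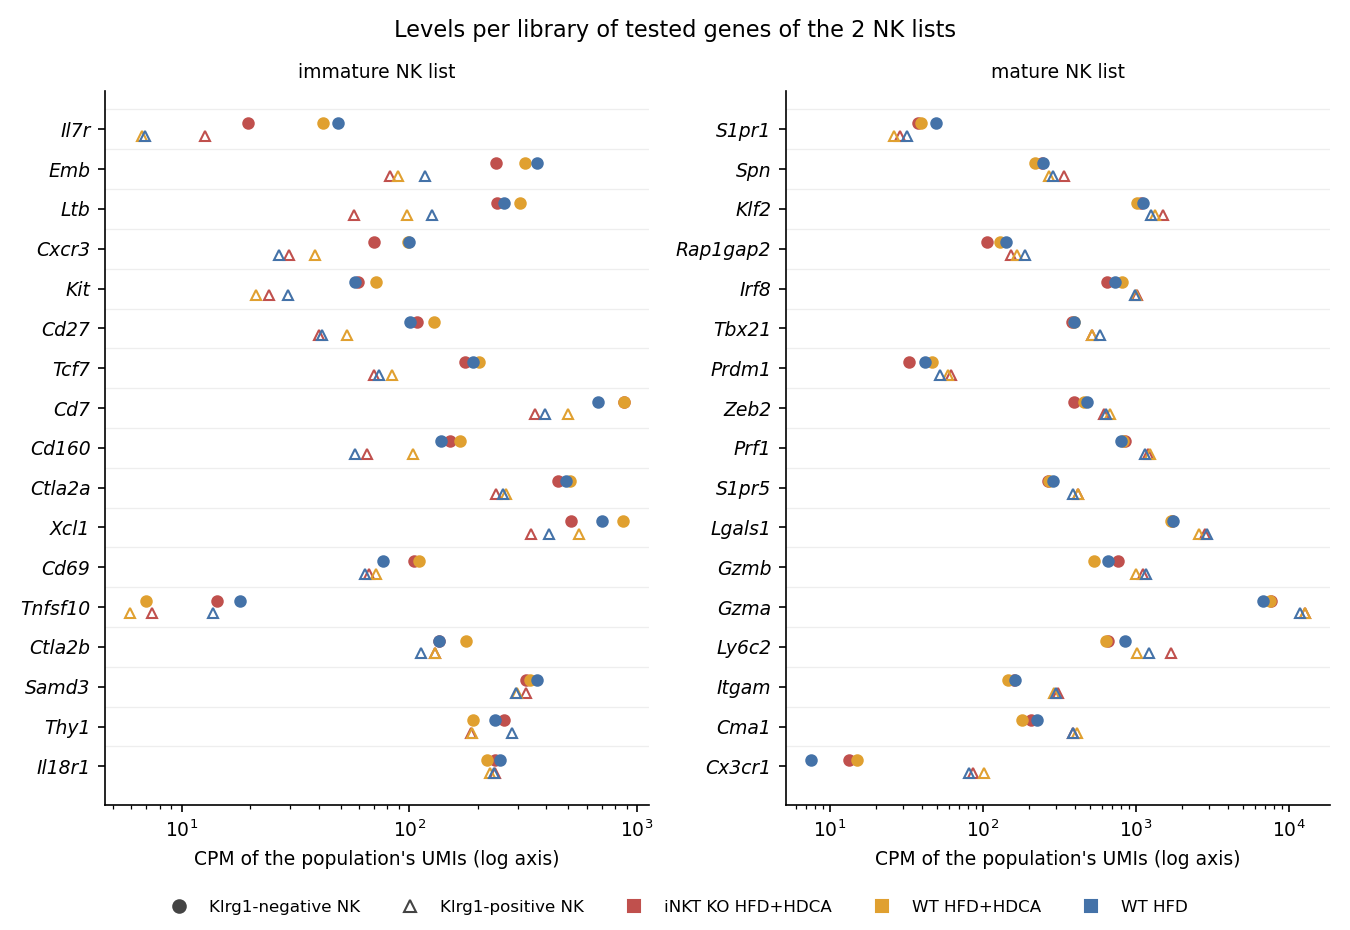
Levels in CPM (log axis) of tested genes of the immature list (left) and the mature list (right), 1 point per library, in Klrg1-negative NK cells (filled circles) and Klrg1-positive NK cells (open triangles). Colours mark iNKT KO HFD+HDCA (red), WT HFD+HDCA (yellow) and WT HFD (blue). Emb in members (239 to 363 CPM) lies right of Klrg1-positive cells (82.3 to 118 CPM), and Cx3cr1 (7.46 to 14.9 CPM) lies left of them (81.6 to 101 CPM).

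The promoters of the 2 most changed genes of each list are shown because these genes moved together. They are the 250 bases before the gene start on the gene's own strand, written 5′ to 3′, from RefSeq's GRCm38.p6 assembly. Capitals mark matches to 3 short motifs: TCACAC or its reverse GTGTGA for T-box factors such as Eomes and T-bet, CTTTGA or TCAAAG for TCF-1 and its relatives, and TGTGGT or ACCACA for RUNX factors. The motifs can overlap one another. Il7r is at chr15:9529877-9530126 (minus strand), Emb at chr13:117220323-117220572 (plus), Cx3cr1 at chr9:120068297-120068546 (minus) and Cma1 at chr14:55944676-55944925 (minus).
Il7r: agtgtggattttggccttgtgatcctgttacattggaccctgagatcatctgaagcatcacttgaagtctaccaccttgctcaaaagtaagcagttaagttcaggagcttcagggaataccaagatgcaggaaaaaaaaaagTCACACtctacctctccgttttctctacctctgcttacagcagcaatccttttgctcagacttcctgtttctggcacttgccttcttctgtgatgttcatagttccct
Emb: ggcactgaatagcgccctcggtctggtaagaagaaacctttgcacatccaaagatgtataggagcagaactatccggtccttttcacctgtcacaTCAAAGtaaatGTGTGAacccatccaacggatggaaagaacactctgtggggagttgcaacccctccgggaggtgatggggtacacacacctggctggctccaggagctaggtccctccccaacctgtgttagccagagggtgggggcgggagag
Cx3cr1: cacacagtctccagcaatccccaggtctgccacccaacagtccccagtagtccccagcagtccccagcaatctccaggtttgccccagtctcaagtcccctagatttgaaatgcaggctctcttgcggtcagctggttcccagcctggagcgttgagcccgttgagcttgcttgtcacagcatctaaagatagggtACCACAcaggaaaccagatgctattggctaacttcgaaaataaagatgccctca
Cma1: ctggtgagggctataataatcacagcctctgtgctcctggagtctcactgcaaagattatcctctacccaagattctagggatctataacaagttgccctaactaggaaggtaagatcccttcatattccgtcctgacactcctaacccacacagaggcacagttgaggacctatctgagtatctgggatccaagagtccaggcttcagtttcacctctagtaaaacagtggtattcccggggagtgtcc
The Il7r window holds 1 T-box match, beginning 108 bases before the start. The Emb window holds a T-box match at 144 bases and a TCF match at 155 bases, and the Cx3cr1 window a RUNX match at 54 bases. The Cma1 window holds none of the 3 motifs.

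A T-box match was in the windows of 5 of the 11 called immature-list genes that had one (45.5%: Cd160, Cxcr3, Emb, Il7r and Xcl1) and of 2 of 15 called mature-list genes (13.3%: Gzmb and Rap1gap2). Among all 27025 genes with a window, 3768 (13.9%) held it. The TCF motif was in 2 of 11 (18.2%) and 1 of 15 (6.67%), against 15.8% of all genes. The RUNX motif was in 3 of 11 (27.3%) and 6 of 15 (40.0%: Cx3cr1, Gzma, Gzmb, Ly6c2, Prf1 and Rap1gap2), against 15.9% of all genes. A match is a description of letters and not a bound site.

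Several killing genes were lower in members, and granzyme M was higher. Of 20 genes on the cytotoxic granule list, all tested, 1 was higher and 7 lower. Gzma, encoding granzyme A, had 7615, 7557 and 6740.2 CPM in Klrg1-negative NK cells of iNKT KO HFD+HDCA, WT HFD+HDCA and WT HFD, against 12760.5, 12737 and 11915 CPM in Klrg1-positive cells (log2 fold change -0.78, edgeR adjusted p = 8.1e-14). Gzmb, granzyme B, had 766, 530.2 and 658 CPM in members and 1114, 998 and 1173 CPM in Klrg1-positive cells (-0.78). Prf1, perforin, had 845, 826 and 799 CPM in members and 1197, 1242 and 1144 CPM in Klrg1-positive cells (-0.55). Both populations thus carried these 3 granule genes, and members less in every library. Gzmm had 28.5, 71.1 and 42.2 CPM in members, against 7.39, 15.0 and 10.3 CPM in Klrg1-positive cells, a log2 fold change of 2.13 ± 0.20 (SE; edgeR adjusted p = 1.19e-12). Nkg7, Ctsc and Ctsd changed by -0.27, -0.43 and -0.27, and Gzmc by -1.15, although Gzmc was not lower in every library. DESeq2 called 4 of the list lower.

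Among secreted factors, Xcl1, a chemokine that attracts dendritic cells, and Ltb were higher in members, and Ccl3 and Ccl5 lower, out of 10 tested. Xcl1 had 515, 870.3 and 705 CPM in members of iNKT KO HFD+HDCA, WT HFD+HDCA and WT HFD, against 343, 558 and 412 CPM in Klrg1-positive cells. Ccl5 had 11169, 12591 and 11069 CPM in members and 18073, 18633 and 16370 CPM in Klrg1-positive cells (-0.62, edgeR adjusted p = 4.205e-10). Within each library the order of the populations was the same for both genes, opposite between them.

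Receptors split. Of 7 Ly49 genes tested, Klra6 and Klra1 were higher (1.47 and 0.71 on the log2 scale) and Klra9 and Klra3 lower (-0.84 and -0.72), with the caution on near-identical copies. DESeq2 called neither higher one and kept both lower ones, as did edgeR on thinned cells, where Klra6 was not tested. Klra1 was not higher in the knockout library, where it had 74.7 CPM in members and 78.1 CPM in Klrg1-positive cells. Of 16 other NK receptors, Slamf6, Crtam and Cd160 were higher and Klrc1, encoding NKG2A, and Slamf7 lower. Slamf6 rose by 1.72, but did not meet the rule for named genes (at least 100 UMIs and 1 sign in all 3 libraries). Crtam rose by 0.83, and DESeq2 called 2 of the list higher and 0 lower. Of 19 receptor signalling genes tested, only Lat2 passed (-0.36), and it did not with DESeq2, after thinning or without WT HFD+HDCA. Trafficking genes went both ways, with 7 higher and 8 lower of 21, and 2 higher and 5 lower by DESeq2 or after thinning. Ccr2, a chemokine receptor of inflamed tissue, rose by 0.62, while the integrin genes Itgb2, Itgb1 and Itgb7 changed by -0.40, -0.30 and -0.46. Tox, Nfil3 and Stat4, transcription factors of early NK development and cytokine response, rose by 0.70, 0.50 and 0.35, and Id2 changed by -0.27.

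The named genes outside these lists included Lilrb4a and Lilrb4b, near-identical receptor genes, and Pdcd1lg2, encoding PD-L2. Pdcd1lg2 had 40.0, 31.3 and 30.4 CPM in members of iNKT KO HFD+HDCA, WT HFD+HDCA and WT HFD, against 6.33, 12.6 and 12.0 CPM in Klrg1-positive cells (1.56, edgeR adjusted p = 1.418e-06). Lilrb4a rose by 1.55 and Lilrb4b by 1.45. Cd2ap and Adgrg5 rose by 1.66 and 1.5, but Cd2ap had an edgeR adjusted p of 0.05745 without WT HFD and Adgrg5 of 0.1595 without WT HFD+HDCA. Gpx8, a glutathione peroxidase of the endoplasmic reticulum, was lower (-2.53) at 5.34, 4.48 and 3.73 CPM in members, against 33.8, 28.7 and 16.3 CPM in Klrg1-positive cells.

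Dividing cells made up a smaller share of members than of Klrg1-positive cells in each library, on few cells. At least 2 UMIs over Mki67 and Top2a, genes of proliferating cells, were seen in 3 members of each library, which is 1.6% in iNKT KO HFD+HDCA (0.332% to 4.62%), 0.843% in WT HFD+HDCA (0.174% to 2.44%) and 1.05% in WT HFD (0.216% to 3.02%). Klrg1-positive cells had 5, 16 and 7 such cells, or 2.98% (0.973% to 6.81%), 4.1% (2.36% to 6.58%) and 3.87% (1.57% to 7.81%). The intervals of both populations overlapped in each library. Of 17 tested cell cycle genes, 13 were lower in members, with a median of -1.28 on the log2 scale. Mki67 had 22.2, 17.9 and 24.2 CPM in members, against 67.6, 115 and 42.9 CPM in Klrg1-positive cells (-1.91, edgeR adjusted p = 1.19e-12). Cenpf, Ccna2, Cdca3, Ube2c, Birc5, Prc1, Cdk1 and Ccnb2 changed by -2.27, -2.23, -2.0, -1.9, -1.88, -1.85, -1.84 and -1.80. The count rests on few cells and on 1 library: 5 of 17 genes were lower without WT HFD+HDCA (median -0.58), 6 by DESeq2, and 0 of 8 at 2000 UMIs per cell (median -0.18). Ccna2, Pclaf, Prc1 and Cdk1 had edgeR adjusted p of 0.08066, 0.07139, 0.05396 and 0.08914 without WT HFD+HDCA.

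Residency, interferon and marker lists moved less firmly. Of 13 tested genes of the ILC1 and residency list, 6 were higher (Cxcr6, Il7r, Tmem176b, Inpp4b, Cd69 and Cd3g), 1 by DESeq2, 1 without WT HFD+HDCA, 2 without iNKT KO HFD+HDCA, and 0 of 4 after thinning. Of 15 type I interferon genes, 4 were higher, among them Usp18, Bst2 and Rtp4, with 2 called without WT HFD or without WT HFD+HDCA, and 0 by DESeq2 or after thinning. The ILC1 gate genes Itga1, Cd200r1 or Zfp683 had a UMI in 6.42%, 5.06% and 3.48% of members of iNKT KO HFD+HDCA, WT HFD+HDCA and WT HFD. T cell markers summed to 394.0, 464.5 and 463.5 CPM in members with 7 to 9 of 11 genes detected, against 293.4, 340.6 and 363.3 CPM in Klrg1-positive cells, and Cd3g, Trbc1 and Cd28 were called higher by edgeR and not by DESeq2. B cell markers summed to 115.6, 106.9 and 116.8 CPM in members and 63.3, 82.7 and 79.9 CPM in Klrg1-positive cells, and Ighm, the only one tested, was called higher by edgeR (0.59) and not by DESeq2. The part of these other cells' transcripts in the results was not tested.

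Metabolic lists lay close to 0. The median log2 fold change was -0.03 over 25 oxidative phosphorylation genes and -0.14 over 14 cholesterol synthesis genes. Acadl, of fatty acid oxidation, stood at -0.33 (edgeR adjusted p = 0.04878), and was not called by DESeq2, after thinning, or without WT HFD or WT HFD+HDCA.

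Against ILC1-gated cells, the nearest resident relatives, members differed far more. The ILC1 gate asked for Ncr1 and for Itga1, Cd200r1 or Zfp683 without Eomes, Klra8 and Klra4, and held 313 cells in iNKT KO HFD+HDCA, 141 in WT HFD+HDCA and 97 in WT HFD. Its cells were deeper, with medians of 7236, 6723 and 7976 UMIs. Of 9091 genes tested, edgeR called 644 (7.08%) higher in Klrg1-negative NK cells and 741 (8.15%) lower. Genes of both gates, Klrg1 among them, were again left out of these counts, and ILC1-gated cells were not filtered on Klrg1.

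Ly49 genes were among the genes most clearly higher in members. Members could enter by Klra8 or Klra4, and ILC1-gated cells had neither by rule. The Ly49 family was therefore not compared independently of the gates. Klra7, encoding Ly49G, had 417, 370.0 and 327 CPM in Klrg1-negative NK cells of iNKT KO HFD+HDCA, WT HFD+HDCA and WT HFD, against 19.2, 17.1 and 11 CPM in ILC1-gated cells (log2 fold change 4.49 ± 0.13, edgeR adjusted p = 6.97e-20). Klra6 had 134 UMIs in members and 0 in ILC1-gated cells, which is at least 39.1-fold higher against a floor of 3 counts over the group. In all, 6 of 7 Ly49 genes tested were higher. Ugt1a7c, a glucuronosyltransferase gene, had 56.9, 58.7 and 59.0 CPM in members, against 0.43, 0 and 1.23 CPM in ILC1-gated cells. Khdc1a, Mcam, Cmah, Myb, Gzmm, Gpr25, Dennd2b and Mef2c were also among the genes with the largest differences, higher by 3.9 to 5.98 on the log2 scale.

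The mature NK list ran the other way here. Of its 17 genes, 13 were higher in members than in ILC1-gated cells and 1, Cx3cr1, lower, with a median of 1.38. Itgam rose by 2.52, Irf8 by 1.87, Zeb2 by 1.82 and Prf1 by 1.69. Prf1 had 845, 826 and 799 CPM in members of iNKT KO HFD+HDCA, WT HFD+HDCA and WT HFD, against 301, 267 and 186 CPM in ILC1-gated cells. Gzma had 7615, 7557 and 6740.2 CPM in members and 5106, 3594 and 1058 CPM in ILC1-gated cells of these libraries, so the gap was widest in WT HFD. Cx3cr1 had 13.3, 14.9 and 7.46 CPM in members and 59.7, 31.2 and 2.45 CPM in ILC1-gated cells, higher in members of WT HFD only.

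Genes of the immature list split against ILC1-gated cells, 6 higher and 8 lower of 18. Il7r, Cd160, Cxcr3, Cd7, Ltb, Xcl1 and Tnfsf10 were lower in members, with log2 fold changes of -2.44, -1.93, -1.78, -1.74, -1.52, -1.5 and -3.24, and Tcf7, Ctla2a and Samd3 were among those higher. Il7r had 19.6, 41.8 and 48.5 CPM in members, against 158, 269.6 and 161 CPM in ILC1-gated cells of iNKT KO HFD+HDCA, WT HFD+HDCA and WT HFD. In CPM, members stood between Klrg1-positive NK cells and ILC1-gated cells in Il7r, Cxcr3 and Ltb, in every library. In the knockout, Il7r rested on 22 UMIs in members, 36.4% of them in 1 cell, against 12 UMIs in Klrg1-positive cells. Tcf7, Ctla2a and Ctla2b were among the list genes called higher in members than in both other populations. Of 12 tested ILC1 and residency genes, 10 were lower and 0 higher. Cxcr6, a chemokine receptor of liver residents, had 17.8, 9.45 and 7.46 CPM in members, against 257, 267 and 325 CPM in ILC1-gated cells (-4.71, edgeR adjusted p = 5.87e-18). Tmem176b and Tmem176a, membrane protein genes, changed by -4.52 and -4.50, and Ckb, Ltb4r1 and Adam19 by -4.88, -6.23 and -5.13. Lag3 and Ctla4, checkpoint receptors, changed by -3.32 and -3.33, and 6 of 8 tested checkpoint genes were lower (2 by DESeq2).

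Antigen presentation and activation genes differed too. Of 15 MHC class I genes, 10 were lower in members than in ILC1-gated cells, B2m by -0.51, and DESeq2 called 6 of them. Of 22 immediate early genes, 1 was lower and 12 were higher, the higher ones including Nr4a2 (1.56), Nr4a1 (0.92) and Fos (0.68). DESeq2 called 6 higher. Of 18 cell cycle genes, 15 were lower, Mki67 by -1.77, and 1 was higher. DESeq2 called 7 lower, and at 2000 UMIs per cell 0 of 8 tested were lower and 1 higher (median -0.06). ILC1-gated cells of the knockout carried Klrg1 at 219 CPM, against 109 CPM in WT HFD+HDCA and 33.1 CPM in WT HFD, so Klrg1 in that gate differed between the libraries.

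**Figure D3:**
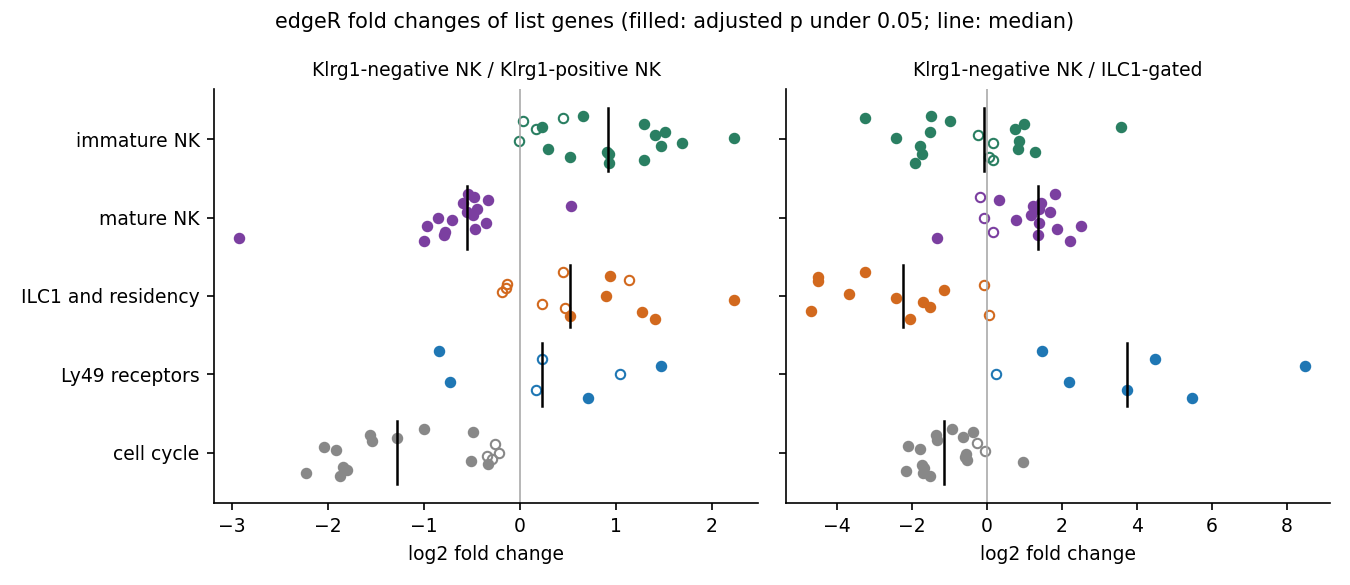
Log2 fold changes from edgeR of the genes of 5 lists, Klrg1-negative NK cells over Klrg1-positive NK cells (left) and over ILC1-gated cells (right). Each point is a gene, filled where the adjusted p was under 0.05, and the black line is the list's median. The mature NK list lies below 0 on the left (median -0.55) and above it on the right (1.38), and the cell cycle list below 0 in both (-1.28 and -1.14).

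The question of iNKT cell loss was addressed by members of iNKT KO HFD+HDCA over those of WT HFD+HDCA. Among 5009 genes with at least 100 UMIs over both libraries, 49 (0.978%) were at least 1.5-fold higher in iNKT KO HFD+HDCA and 100 (2.0%) at least 1.5-fold lower. These are differences between single libraries. Over these genes the median log2 ratio was -0.03.

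Lgals3 (ENSMUSG00000050335), encoding galectin-3, had the highest ratio among the named genes. It had 218.8 CPM in members of iNKT KO HFD+HDCA, 27.4 CPM in WT HFD+HDCA and 19.3 CPM in WT HFD, and was seen in 44.4%, 10.7% and 8.01% of members. Its ratio of knockout to WT mice on HDCA was 8.0 (5.95 to 10.9) in members, 9.82 (7.43 to 13.1) in Klrg1-positive NK cells and 20.8 in ILC1-gated cells. In B-gated cells it had 63.9, 26.7 and 13.7 CPM in the 3 libraries. Lgals3 lies on chromosome 14, as does the targeted segment Traj18, and the part of the targeted locus was not tested.

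TCR constant genes of the same chromosome were nearly absent from knockout members. Trdc, the δ constant gene, had 1 UMI in iNKT KO HFD+HDCA, 131 in WT HFD+HDCA and 91 in WT HFD, a ratio of knockout to WT mice on HDCA of 0.0137 (0.000343 to 0.0774). Trac, the α constant gene, had 3, 63 and 36 UMIs in the same libraries, a ratio of 0.0852 (0.0171 to 0.26). In Klrg1-positive cells the ratios were 0.0812 and 0.0909. Members by rule had no TCR contig and no Cd3d or Cd3e UMI. Among members, both constant genes were thus detected mainly in the WT libraries.

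Tmem254 (ENSMUSG00000072676), a transmembrane protein gene, had the lowest ratio among the named genes. It had 56.9 CPM in members of iNKT KO HFD+HDCA, 217.8 CPM in WT HFD+HDCA and 190.1 CPM in WT HFD, with a ratio of knockout to WT mice on HDCA of 0.261 (0.198 to 0.34). The ratio was 0.299 in Klrg1-positive NK cells and 0.301 in ILC1-gated cells, so the difference was not confined to members. Il31ra, encoding an interleukin-31 receptor chain, had 1250.4, 702.2 and 1094.1 CPM in members of iNKT KO HFD+HDCA, WT HFD+HDCA and WT HFD. It had 989, 753 and 999 CPM in B-gated cells, so the same library was low there. Fgfr2 had the same pattern, with 188.5, 114.4 and 173.3 CPM in members and 180.5, 106.0 and 173.7 CPM in B-gated cells.

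Hspa1b, an inducible heat shock gene with a near-identical copy in Hspa1a, had 59.6 CPM in members of iNKT KO HFD+HDCA, 19.4 CPM in WT HFD+HDCA and 50.9 CPM in WT HFD. The ratio of knockout to WT mice on HDCA was 3.07 (2.04 to 4.68) in members and 22.9 (12.2 to 47.5) in Klrg1-positive cells. B-gated cells had 110.8, 24.5 and 48.9 CPM. The heat shock list as a whole did not rise in knockout members. Of 11 measured genes, 2 were higher and 9 lower than in WT HFD+HDCA (median log2 ratio -0.13), beside 3935 of 7173 lower over all genes. Eml3, Mta1, Serpinb9b, S100a4, Zcchc8 and Akt1 were higher in knockout members by ratios of 1.97, 1.94, 1.93, 1.77, 1.72 and 1.67. Their ratios in Klrg1-positive cells were 1.1, 1.14, 1.28, 1.27, 0.884 and 1.06, with no test of the difference.

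Immature NK genes were mostly lower in knockout members. Of 17 measured genes of that list, 2 were higher and 15 lower in iNKT KO HFD+HDCA than in WT HFD+HDCA, with a median log2 ratio of -0.20. Over all genes with at least 50 UMIs, 3935 of 7173 were lower (median -0.03). Xcl1 had 514.9, 870.3 and 704.5 CPM in iNKT KO HFD+HDCA, WT HFD+HDCA and WT HFD, a ratio of knockout to WT mice on HDCA of 0.592 (0.538 to 0.65). A single cell held 20.2% of the Xcl1 UMIs in WT HFD+HDCA, and the ratio was 0.741 (0.672 to 0.817) without it. Emb had 239.2, 320.8 and 363.4 CPM (0.746, 0.644 to 0.861), and Ltb 243.7, 304.9 and 260.3 CPM (0.799, 0.691 to 0.923), with ratios of 0.936 and 0.68 at 2000 UMIs per cell. Il7r (0.468, 0.279 to 0.756) was lower as well, but 1 cell held 36.4% of its UMIs in the knockout and its log2 ratio was -0.08 at 2000 UMIs per cell. The counting intervals of Cd27 and Tcf7 included 1. The mature list did not lean, with 9 higher and 7 lower of 16 (median 0.02).

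Chemokine and cytotoxic genes differed one by one. Ccl4, encoding the chemokine MIP-1β, had 644.8 CPM in members of iNKT KO HFD+HDCA, 1150.8 CPM in WT HFD+HDCA and 849.9 CPM in WT HFD, a ratio of knockout to WT mice on HDCA of 0.56 (0.515 to 0.609). A single cell held 26.6% of its UMIs in WT HFD+HDCA, and the ratio without it was 0.763 (0.699 to 0.833). Tnf had 1, 31 and 26 UMIs in these libraries, too few for a ratio. Gzmb was higher in the knockout, at 765.7, 530.2 and 657.9 CPM (1.44, 1.32 to 1.58), but its ratio was 1.03 at 2000 UMIs per cell, and the intervals of Gzma (1.01, 0.981 to 1.03) and Prf1 (1.02, 0.943 to 1.11) included 1. Gzmm had 28.5, 71.1 and 42.2 CPM (0.4, 0.264 to 0.59), with 25% of its knockout UMIs in 1 cell and a ratio of 0.708 at 2000 UMIs per cell. Crtam, an adhesion receptor of activated NK cells, had 62.3, 131.3 and 103.1 CPM (0.474, 0.359 to 0.619), and its ratio was 0.34 (0.213 to 0.522) in Klrg1-positive cells.

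Among receptors, Klra3, encoding Ly49C, had 333.5, 205.4 and 184.5 CPM in members of iNKT KO HFD+HDCA, WT HFD+HDCA and WT HFD, a ratio of knockout to WT mice on HDCA of 1.62 (1.41 to 1.87). Klra1, encoding Ly49A, had 74.7, 136.3 and 134.8 CPM (0.548, 0.424 to 0.702), and its ratio was 1.1 (0.829 to 1.45) in Klrg1-positive cells. These opposite directions within 1 gene family were not tested against each other. Type I interferon genes were mostly lower, 2 higher and 9 lower of 11 measured, with a median log2 ratio of -0.37. Isg15 had a ratio of 0.648 (0.422 to 0.975) and of 0.843 (0.54 to 1.29) without the 1 cell that held 23.1% of its UMIs in WT HFD+HDCA, while Irf7 was at 1.15 (0.891 to 1.49). Receptor signalling genes were lower in 15 of 19 (median -0.14) and MHC class I genes in 11 of 15 (-0.12), beside 3935 of 7173 over all genes. Cell cycle genes were higher in 7 of 10 (0.17). The replication genes Mcm5 and Mcm6 had ratios of 2.03 (1.37 to 3.02) and 1.81 (1.42 to 2.31), but 1 cell held 41.4% and 24.3% of their knockout UMIs, and the ratios were 0.94 and 1.03 at 2000 UMIs per cell. Abtb2, Nsrp1, Ubxn2a, Egr1, Stap1 and Srgap2 completed the lower named genes, with ratios of 0.397, 0.455, 0.49, 0.492, 0.511 and 0.524.

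The question of HDCA in the diet was addressed by members of WT HFD+HDCA over those of WT HFD. Of 5549 genes with at least 100 UMIs, 43 (0.775%) were at least 1.5-fold higher in WT HFD+HDCA and 53 (0.955%) at least 1.5-fold lower, with a median log2 ratio of -0.02. This comparison shares the WT HFD+HDCA library with the one above, so a value particular to that library moves both in opposite directions. Stap1, Hspa1b and Gzmm were named in both.

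Gadd45b, a stress-induced gene, had 102.0 CPM in members of WT HFD+HDCA and 60.3 CPM in WT HFD, a ratio of 1.69 (1.32 to 2.18), against 1.07 (0.807 to 1.42) in Klrg1-positive cells. Gzmm had 71.1 CPM in WT HFD+HDCA and 42.2 CPM in WT HFD (1.68, 1.25 to 2.28). Stap1, an adaptor of tyrosine kinase signalling, had 52.2 CPM in WT HFD+HDCA and 28.6 CPM in WT HFD (1.83, 1.28 to 2.64), but its log2 ratio was 0.24 at 2000 UMIs per cell. In the summed counts the intervals of all 3 lay above 1. The genes were named for their high ratios, so these intervals are no separate evidence of a difference. Dok1, Dtx3, Cwc25, Keap1, Cisd1, Traf6 and Tbce had ratios of 1.66 to 1.78 in members and of 0.845 to 1.36 in Klrg1-positive cells.

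Hspa1b was the lowest of the named genes with HDCA, at 19.4 CPM in WT HFD+HDCA and 50.9 CPM in WT HFD, a ratio of 0.381 (0.253 to 0.564). The ratio was 0.0934 (0.044 to 0.181) in Klrg1-positive cells and 2.13 in ILC1-gated cells, where the interval of 0.996 to 4.96 included 1. Lyst, a regulator of lysosome and granule size, had 62.2 CPM in WT HFD+HDCA and 107.5 CPM in WT HFD (0.578, 0.456 to 0.732), against 0.976 (0.716 to 1.34) in Klrg1-positive cells. Eci2, of fatty acid oxidation, Slc25a4, the mitochondrial ADP/ATP carrier, and Dgat1, of triglyceride synthesis, had ratios of 0.552, 0.565 and 0.579. The fatty acid oxidation list as a whole had 7 genes higher and 5 lower of 12. Mettl16, Gpr25, Fmnl3, Bbs9 and Mfap1b, the last with a near-identical copy, had ratios of 0.474, 0.546, 0.559, 0.568 and 0.574.

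Interferon-γ was lower with HDCA, and chemokines differed one by one. Ifng had 136.8 CPM in members of WT HFD+HDCA and 267.1 CPM in WT HFD, a ratio of 0.512 (0.438 to 0.597). A single cell held 34.2% of its UMIs in WT HFD, and the ratio was 0.778 (0.657 to 0.922) without that cell and 0.662 at 2000 UMIs per cell. In Klrg1-positive cells it was 0.803 (0.683 to 0.946), and knockout members had 120.1 CPM. Ccl4 had 1150.8 CPM in WT HFD+HDCA and 849.9 CPM in WT HFD (1.35, 1.27 to 1.45), and Xcl1 had 870.3 CPM in WT HFD+HDCA and 704.5 CPM in WT HFD (1.24, 1.15 to 1.33). Without the 1 cell of WT HFD+HDCA that held 26.6% of the Ccl4 UMIs and the 1 that held 20.2% of the Xcl1 UMIs, these ratios were 0.994 (0.925 to 1.07) and 0.986 (0.911 to 1.07), so both differences rested on single cells. Ccl5 had 12590.7 CPM in WT HFD+HDCA and 11069.2 CPM in WT HFD (1.14, 1.12 to 1.16), while Ccl3 had 399.9 CPM in WT HFD+HDCA and 457.3 CPM in WT HFD (0.874, 0.79 to 0.968; 0.997 at 2000 UMIs per cell). Gzmb had 530.2 CPM in WT HFD+HDCA and 657.9 CPM in WT HFD (0.806, 0.739 to 0.878; 0.919 at 2000 UMIs per cell).

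By list, receptor signalling genes were higher with HDCA in 16 of 19 (median log2 ratio 0.16) and cytotoxic granule genes in 15 of 19 (0.09), beside 3510 of 7576 over all genes with at least 50 UMIs (-0.02). The immature list had 10 higher and 7 lower of 17 (0.10), with Cd69 at 1.44 (1.15 to 1.82), Cd7 at 1.3 (1.2 to 1.4) and Thy1 at 0.805 (0.697 to 0.93), or 0.947 at 2000 UMIs per cell. The mature list had 4 higher and 12 lower of 16 (-0.11), with Ly6c2 at 0.752 (0.697 to 0.813) and Cma1 at 0.792 (0.682 to 0.918). Cell cycle genes were lower in 11 of 11 measured (-0.30), but in 4 of 10 at 2000 UMIs per cell. Most single ratios in these lists lay within 1.5-fold of 1.

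The receptors known best for bile acids and GLP-1 were not detected in members. Gpbar1, Nr1h4, Vdr and Glp1r, encoding the bile acid receptors TGR5 and FXR, the vitamin D receptor and the GLP-1 receptor, had 0 UMIs in members of all 3 libraries. Of 16 genes on that list, 4 could be tested between populations, with a median log2 fold change of -0.02 over Klrg1-positive cells. Nr1h2, encoding LXRβ, had 104.1, 92.5 and 101.3 CPM in iNKT KO HFD+HDCA, WT HFD+HDCA and WT HFD. The list as a whole summed to 181.4 CPM in iNKT KO HFD+HDCA, 148.7 CPM in WT HFD+HDCA and 175.2 CPM in WT HFD. Ppara, the lipid sensor PPARα, also had 0 UMIs in members. At these depths a floor of 3 counts lies at 2.67, 1.49 and 1.86 CPM in the 3 libraries, so low levels could go unseen.

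**Figure D4:**
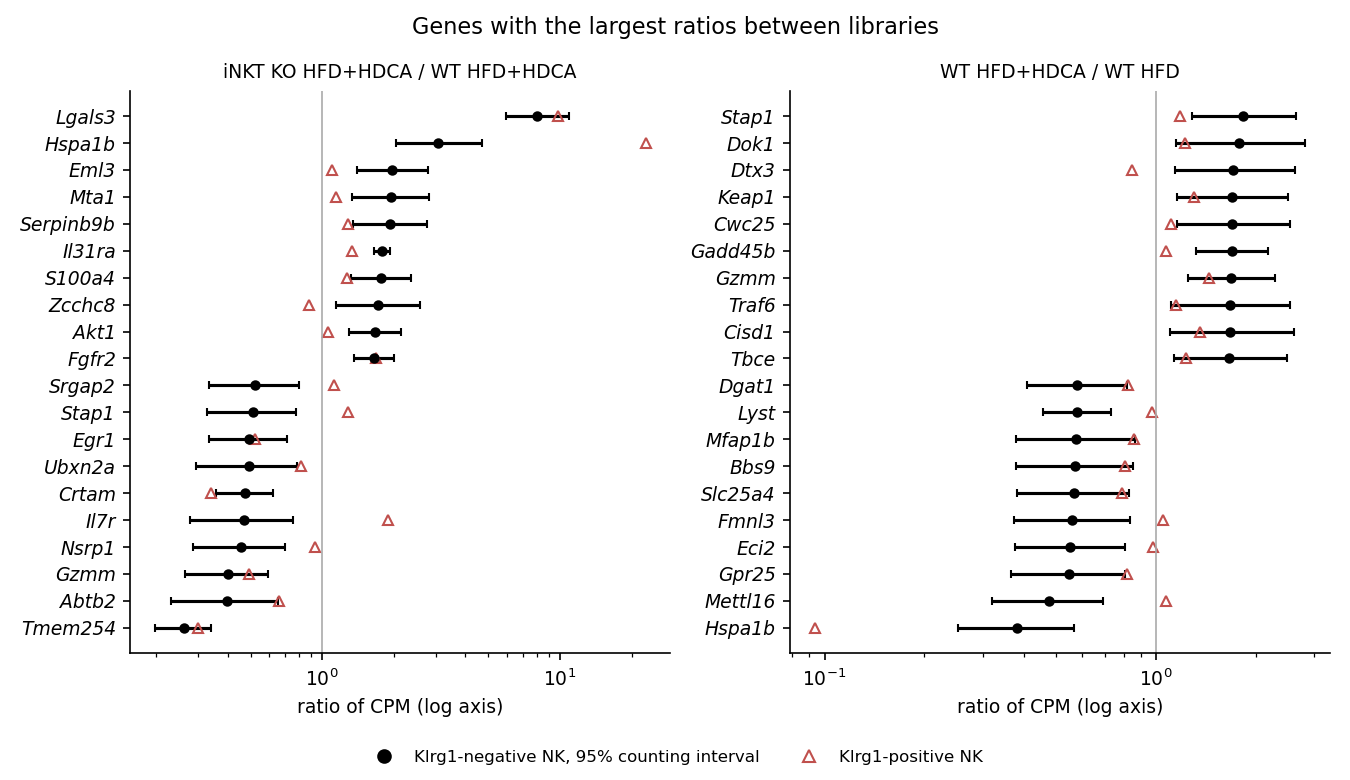
Ratios of CPM (log axis) for the named genes of iNKT KO HFD+HDCA over WT HFD+HDCA (left) and of WT HFD+HDCA over WT HFD (right). Black points are Klrg1-negative NK cells with exact 95% intervals for counting error only, and red triangles are Klrg1-positive NK cells. Lgals3 is at 8.0 in members and 9.82 in Klrg1-positive cells on the left, while Stap1 lies at 0.511 and 1.28.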

How the data were processed

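Cells of mouse liver were profiled as 10x Genomics libraries, 1 RNA and 1 TCR library per group. The deposited matrices hold whole-number UMI counts per gene and barcode for 33696 genes, made with Cell Ranger 8.0.1 per the file headers, and the submitters' processing notes name the builds mm10 and GRCm39 without saying which served which step. A normal-diet group named in the study's design was not analysed here. Cells with under 200 genes or 10% or more mitochondrial counts and called doublets (Scrublet in scanpy 1.11.5) were left out. The rate of called doublets lay between 3.52% and 4.85% of a library. Counts were summed per library and population and compared with edgeR 4.0.16 (R 4.3.3), with library and population as terms and Benjamini-Hochberg adjustment over all genes tested. DESeq2 1.42.0 was an alternative, as were other filters, gates and thinned cells. Exact intervals used scipy 1.17.1. The scripts for these tests were tested on simulated data. The members and the gene lists were chosen with earlier results of these data known.

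Genes named between libraries were the 10 highest and 10 lowest ratios with at least 100 UMIs and 1.5-fold, with no cell over 20% of the higher library's UMIs. Gene models, receptor segments, mitochondrial, ribosomal, sex-linked and gate genes were left out. Genes named between populations were the 12 highest and 12 lowest log2 fold changes past an adjusted p of 0.05, with at least 100 UMIs and 1 sign in all 3 libraries. List members needed 50 UMIs for a ratio. Each group is 1 library, so p-values between populations measure the spread over these 3 libraries. Single values of some list genes are not reported here, while list counts and medians include them.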

Additional observations from a re-analysis of the deposited data

Results flagged for a closer look

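Stap1, an adaptor of tyrosine kinase signalling, had ratios on opposite sides of 1 in the 2 NK populations. Its log2 ratio of iNKT KO HFD+HDCA over WT HFD+HDCA was -0.969 in Klrg1-negative NK cells (ratio 0.511) and 0.357 in Klrg1-positive NK cells (ratio 1.28, 0.869 to 1.86). With 1 library per group the difference between the populations was not tested, and the interval in Klrg1-positive cells includes 1. B-gated cells had 202.9, 229.5 and 242.7 CPM of Stap1 in iNKT KO HFD+HDCA, WT HFD+HDCA and WT HFD. Members had 26.7, 52.2 and 28.6 CPM, and the part of B cell transcripts in them was not tested.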

How the results depend on the processing

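With 2000 UMIs per cell, the share of kept cells in WT HFD+HDCA was 4.62%, and the shares of gated NK cells were 65.4% in iNKT KO HFD+HDCA, 68.3% in WT HFD+HDCA and 74.3% in WT HFD. Against Klrg1-positive NK cells (235 higher and 266 lower with edgeR), DESeq2 called 30 higher and 49 lower, edgeR on thinned cells 96 and 67, a gate of at least 2 UMIs over Eomes, Klra8 and Klra4 133 and 166, and a fit with no library block 113 and 149. Leaving out 1 library gave 94 to 197 higher and 95 to 278 lower, with the lowest counts without WT HFD+HDCA. Against ILC1-gated cells (644 and 741), DESeq2 called 240 and 291, thinned cells gave 218 and 298, and leaving out 1 library gave 455 to 599 and 530 to 691. The library stands as a block in these fits, so both populations were paired within each library. Between the groups of mice no pairing was possible, because each group has 1 library.

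For iNKT KO HFD+HDCA over WT HFD+HDCA (49 higher and 100 lower), a minimum of 50 UMIs gave 184 and 316, and one of 200 UMIs 14 and 29. Thinned cells gave 57 lower, and the mean of per-cell CPM 160 lower. For WT HFD+HDCA over WT HFD (43 and 53), a minimum of 50 UMIs gave 147 and 199, and one of 200 UMIs 9 and 11. Thinned cells gave 31 lower, and the mean of per-cell CPM 67 higher. A lower minimum admits more genes by construction, and the cause of the other shifts was not tested.

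None of the named genes changed direction under the alternatives run. Of the comparisons of named genes between populations, 14 lost their call and 445 kept it. DESeq2 gave adjusted p of 0.2223 for Cd2ap, 0.5039 for Adgrg5, 0.0957 for Klra6 and 0.08888 for Mki67. Between libraries 14 values moved and 266 did not. For 17 ratios of list genes, 2 checks chosen after seeing the data left out the cell with most UMIs of the gene or used thinned cells, and 15 values stayed within their counting interval, 16 moved and 3 changed sign. Without that cell, the log2 ratios of WT HFD+HDCA over WT HFD were -0.008 for Ccl4 and -0.02 for Xcl1. In thinned cells that of iNKT KO HFD+HDCA over WT HFD+HDCA was -0.089 for Mcm5. The log2 ratio of Egr1 was -2.91 and that of Gzmm -0.50 in thinned cells of iNKT KO HFD+HDCA over WT HFD+HDCA. Low counts limit all genes near the minimum.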
